A study of Mus musculus with 25 samples.

Results

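The protein kinases of the mitogen-activated protein (MAP) kinase cascade were followed at the RNA level in the *soleus*, a postural muscle rich in slow fibers, of WT and mD3AKO mice at rest and after treadmill running. The genes were chosen by symbol alone: *Map4k*, *Map3k*, *Map2k*, *Mapk* or *Mapkapk* followed by a number. No measured value entered that rule, although the family was taken up with results of these data in view. The rule took 46 of the 52636 genes of the count table, with 5 MAP4K, 18 MAP3K, 7 MAP2K, 13 MAPK and 3 MAPKAPK genes. Of these, 42 passed the filter on low counts and were tested. *Map3k19*, *Map3k21*, *Mapk13* and *Mapk15* had at most 10 counts in any library and were not tested.

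In the cascade, a MAP3K phosphorylates a MAP2K, which in turn phosphorylates a MAPK on a threonine and a tyrosine of its activation loop. MAP4Ks act above the MAP3Ks, and MAPKAPKs are kinases that MAPKs phosphorylate. The classical arms end in ERK, JNK, p38 and ERK5, and contracting muscle is known to activate several of them. That activation is a phosphorylation, which RNA levels do not measure.

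All mice were on a C57BL/6 background, were 12 weeks old and carried a floxed *Dnmt3a* on both alleles. WT mice were *Dnmt3a* flox/flox without Cre, and mD3AKO mice were *Dnmt3a* flox/flox with a Cre transgene driven by the muscle creatine kinase promoter (mCK-Cre). DNMT3A is a de novo DNA methyltransferase. The mCK promoter acts in muscle fibers and turns on late in their differentiation. The authors propose satellite cells and non-muscle cells as the likely source of the *Dnmt3a* RNA that remains in mD3AKO muscle. The rested mice, killed after a sham treadmill, were 5 WT mice (2 females and 3 males) and 7 mD3AKO mice (3 females and 4 males). The exercised mice ran on the treadmill for 30 minutes, were killed 60 minutes later and were 7 WT mice (4 females and 3 males) and 6 mD3AKO mice (3 females and 3 males). Each library came from 1 mouse.

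Library totals ran from 22671457 to 37431801 counts, with a median of 32189360, so that 1 CPM, the count scaled to library size, is about 32.2 reads. *Dnmt3a* was between 93.4 and 130.5 CPM in WT and between 34.6 and 53.9 CPM in mD3AKO libraries. Mouse 15, a rested mD3AKO mouse, had the fewest counts, and its most abundant gene took 24.0% of them against 7.00% to 12.0% in the others. All 14 markers of slow and fast fibers were expressed, with a summed level of 79670 to 109000 CPM. In bulk muscle, fewer cells of a type and less RNA per cell cannot be told apart.

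Within tiers, a few kinases held most of the RNA. Levels of different genes are given as CPM per kilobase (kb) of exon, as the mean ± SD over the 25 mice. *Mapkapk2*, the p38-activated kinase MK2, was the most abundant member, at 150.4 ± 13.9 CPM per kb. It made up 96.1% ± 0.474 of the MAPKAPK tier. *Mapkapk3*, the closely related MK3, was at 5.89 ± 0.816 CPM per kb, and *Mapkapk5*, also called PRAK, was lowest in the tier at 0.227 ± 0.0827. The ranges of these genes over the 25 mice did not overlap. The level of *Mapkapk5* was not corrected for the 56.5% of its exon length that overlaps *Gm42878* on the same strand.

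*Map3k20*, the stress kinase ZAK, was the highest MAP3K at 69.3 ± 6.45 CPM per kb and made up 52.1% ± 2.20 of its tier. Behind it stood *Map3k7* (TAK1, which relays cytokine receptors) at 13.0 ± 1.04 and *Map3k4* (MEKK4) at 12.8 ± 0.804 CPM per kb. Their ranges overlapped. *Map3k3* (MEKK3, upstream of MEK5) was at 10.6 ± 0.438 CPM per kb. The mixed lineage kinases *Map3k10* and *Map3k11*, with 5.21 ± 0.552 and 5.03 ± 0.603 CPM per kb, and *Map3k5* (ASK1, a sensor of oxidative stress), with 4.79 ± 0.452, could not be separated by their spread. The lowest MAP3Ks that passed the filter were *Map3k13*, *Map3k15* (ASK3) and *Map3k9*, at 0.159, 0.130 and 0.0723 CPM per kb. *Map3k21* and *Map3k19*, at 0.0245 ± 0.0135 and 0.0248 ± 0.0156 CPM per kb, were lowest in the tier and not separable, from 1 to 10 counts per library.

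Among the MAP2Ks, *Map2k3*, an activator of p38, led with 29.5 ± 4.52 CPM per kb, or 31.2% ± 2.93 of the tier. *Map2k6*, the other dedicated p38 activator, was at 9.59 ± 1.48. *Map2k1* and *Map2k2*, which encode the ERK activators MEK1 and MEK2, were at 16.1 ± 0.889 and 13.0 ± 0.985 CPM per kb. *Map2k4* and *Map2k7*, the JNK activators, were at 13.0 ± 0.606 and 9.50 ± 0.776. *Map2k5*, the activator of ERK5, was lowest at 3.57 ± 0.203 CPM per kb. *Map2k2* and *Map2k4* lay within their spread of each other, as did *Map2k6* and *Map2k7*. The level of *Map2k7* was not corrected for the 35.2% of its exon length that overlaps *Gm49320* on the same strand.

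The highest MAPK was *Mapk12*, which encodes p38γ, the p38 form known for its abundance in skeletal muscle. It stood at 58.8 ± 6.94 CPM per kb and 48.8% ± 2.59 of its tier. *Mapk14* (p38α) was at 18.2 ± 1.40 CPM per kb. *Mapk3* (ERK1) was at 6.79 ± 0.845, close to *Mapk9* (JNK2) at 5.94 ± 0.317, *Mapk6* (ERK3) at 5.91 ± 0.658 and *Mapk8* (JNK1) at 5.45 ± 0.398 CPM per kb. Of the other p38 genes, *Mapk11* (p38β) was at 0.647 ± 0.154, and *Mapk13* (p38δ) had between 0 and 6 counts per library. *Mapk10*, the JNK form best known from brain, was at 0.0230 ± 0.0159 CPM per kb, and *Mapk15* was lowest with at most 2 counts per library.

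In the MAP4K tier, *Map4k4* was highest at 7.73 ± 0.608 CPM per kb, with *Map4k3* at 7.16 ± 0.662, within the spread of both. *Map4k5* followed at 5.39 ± 0.370 and *Map4k2* at 1.55 ± 0.264. *Map4k1*, known as a kinase of blood cells, was lowest at 0.211 ± 0.0912 CPM per kb, from 9 to 45 counts per library.

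**Figure D1:**
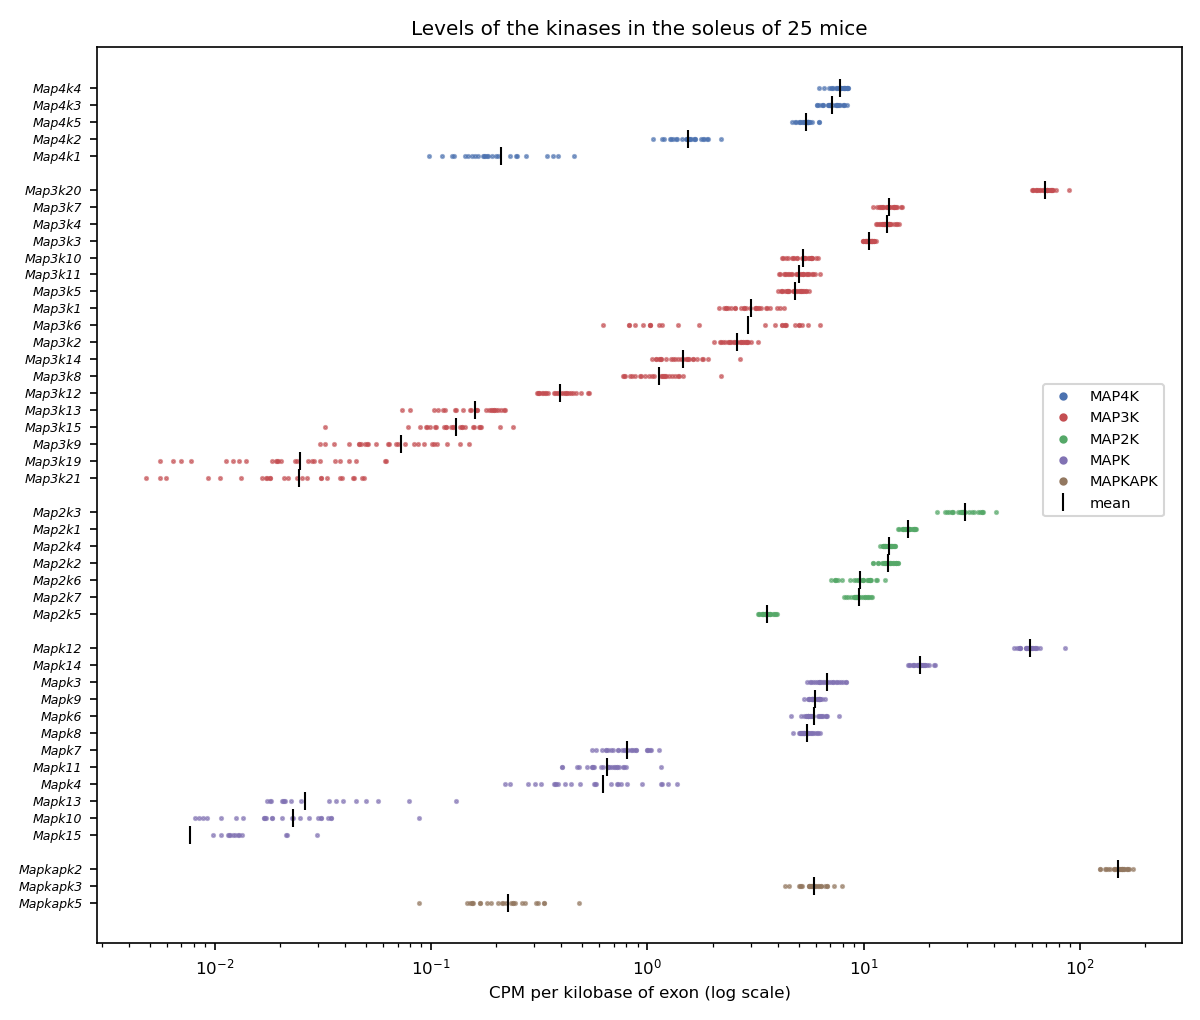
Level of the kinases in the soleus, in CPM per kb of exon on a log axis, by tier and ordered by mean. Each point is 1 of 25 mice and each bar the mean; libraries with 0 counts of a gene (in *Mapk13* and *Mapk15*) cannot be drawn. *Mapkapk2*, *Map3k20*, *Mapk12* and *Map2k3* lead their tiers at 150.4, 69.3, 58.8 and 29.5 CPM per kb, and *Map3k6* falls into separate low and high sets of points.

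Levels were also summed over each tier. The MAP2K sum was 94.4 ± 4.21 CPM per kb (SD, n = 5) in WT mice at rest, 96.2 ± 5.95 (n = 7) in WT after exercise, 91.4 ± 8.00 (n = 7) in mD3AKO at rest and 95.1 ± 7.64 (n = 6) in mD3AKO after exercise. The MAPK sum was 120.9, 120.7, 117 and 122 CPM per kb in the same order, with SDs between 2.05 and 13.4. The MAP3K sum was 134 ± 2.66, 134 ± 4.70, 127 ± 6.99 and 136 ± 11.0 CPM per kb. The MAPKAPK sum was 152, 164, 149 and 161 CPM per kb, with SDs of 10.4 to 16.3. The MAP4K sum was 20.7 ± 1.37 and 21.5 ± 1.14 CPM per kb at rest in WT and mD3AKO mice, and 22.7 ± 0.885 and 23.0 ± 0.800 after exercise. These sums weigh the abundant genes most and were not tested.

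The first comparison asked which kinases respond to the treadmill bout, averaged over both genotypes. With edgeR's quasi-likelihood test and Benjamini-Hochberg adjustment over the 16340 tested genes, called at an adjusted p under 0.05, 6 kinases were higher after exercise and 1 was lower. Of all tested genes, 5.7% were called higher and 4.69% lower. At an unadjusted p under 0.05 there were 16 of 42 kinases, or 38.1%, beside 21.3% of all tested genes. The median log2 fold change of the 42 kinases was 0.036, beside -0.00088 over all tested genes. The calls fell on the tiers above the MAP2Ks and on 1 MAPKAPK: 2 of 5 MAP4Ks, 4 of 16 tested MAP3Ks and 1 of 3 MAPKAPKs. None of 7 MAP2Ks and none of 11 tested MAPKs passed in edgeR's test, although DESeq2 also called the MAPK gene *Mapk6*. With so few genes per tier, a difference between tiers was not tested.

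**Figure D2:**
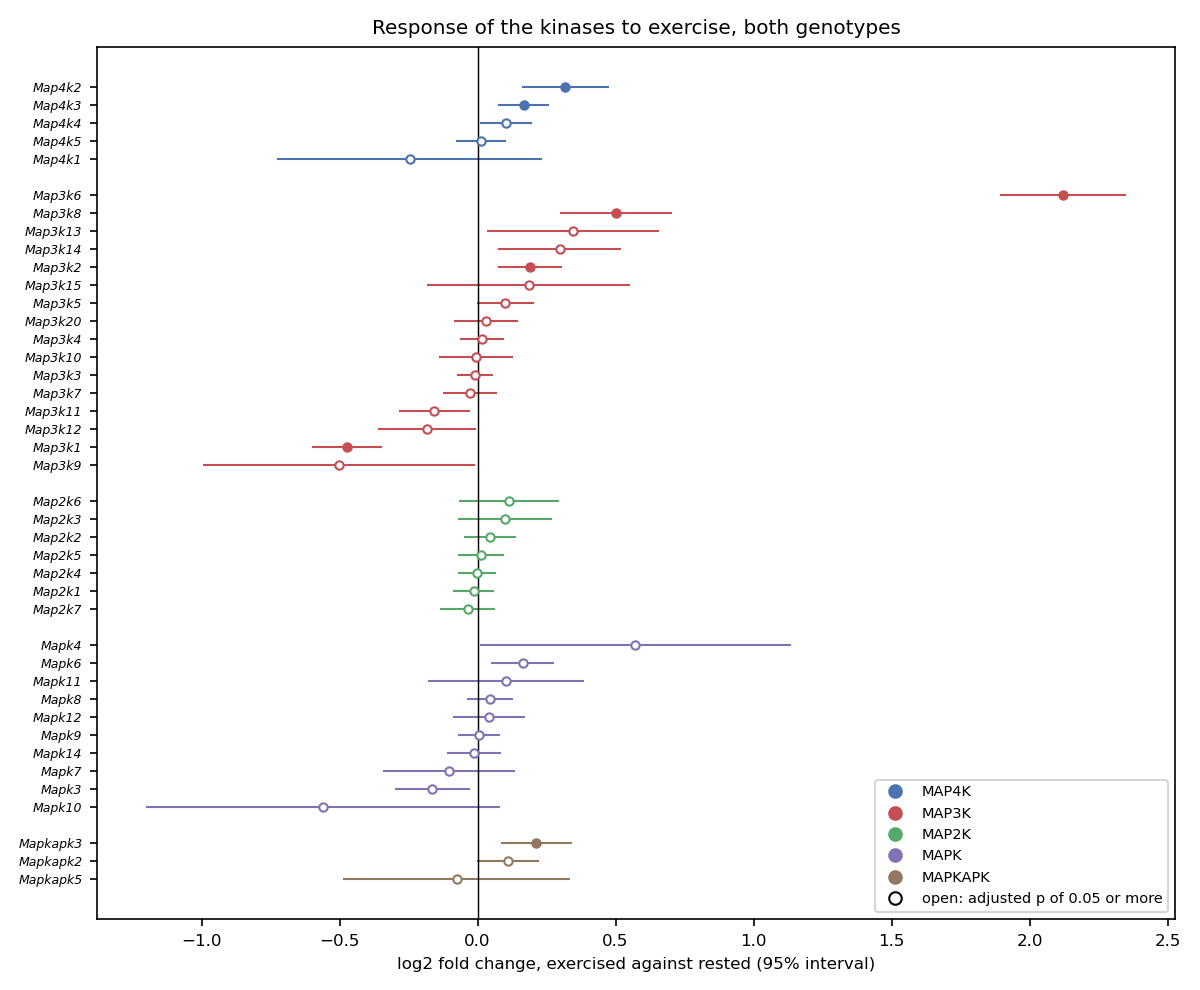
Log2 fold change of tested kinases, exercised against rested mice over both genotypes, with the 95% interval from edgeR's quasi-likelihood fit. Filled points have an adjusted p under 0.05. *Map3k6* stands alone at 2.12, and the MAP2Ks lie between -0.036 and 0.11.

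*Map3k6* had by far the largest rise of the family. It encodes ASK2, a MAP3K that works in a complex with ASK1 and feeds the JNK and p38 arms. In WT mice at rest it was at 5.37, 7.97, 6.40, 4.42 and 4.01 CPM. In WT mice after exercise it ran from 17.9 through a median of 22.1 to 28.8 CPM. In mD3AKO mice it was 2.87, 4.73 and 5.24 CPM at rest (lowest, median, highest) and 16.2, 20.1 and 24.0 CPM after exercise. Every exercised mouse of either genotype stood above every rested mouse, without overlap. The log2 fold change was 2.12 ± 0.11 (SE; 95% interval 1.89 to 2.35), or 4.35-fold, with an adjusted p of 3.79e-13. Among all tested genes, 0.765% separated the exercised from the rested mice upwards in this way, and *Map3k6* was the only kinase of the family to do so.

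At 4.86 ± 0.824 CPM per kb in WT mice after exercise (n = 7), *Map3k6* reached the level of *Map3k5*, its partner, at 4.71 ± 0.476 CPM per kb in the same mice. At rest in WT mice (n = 5) *Map3k6* was at 1.22 ± 0.347 and *Map3k5* at 4.47 ± 0.354 CPM per kb. *Map3k5* itself had a log2 fold change for exercise of 0.10 ± 0.05, with an adjusted p of 0.257. *Map3k15*, the third ASK gene, was at 0.19 ± 0.18 on the log2 scale with an adjusted p of 0.643. It rests on 2 to 33 counts per library, and 13.9% of its exon length overlaps *Pdha1* on the other strand, a gene at 981 CPM.

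*Map3k1* was the only kinase called lower. It encodes MEKK1, a MAP3K upstream of the JNK activators that also carries ubiquitin ligase activity. The WT mice at rest had 25.0, 24.6, 30.4, 23.8 and 27.4 CPM. After exercise the WT mice had a lowest value of 16.9, a median of 18.2 and a highest value of 22.3 CPM. The mD3AKO mice had 23.5, 26.3 and 31.8 CPM at rest and 16.0, 20.5 and 21.4 CPM after exercise. All 13 exercised mice lay below all 12 rested mice. The log2 fold change was -0.47 ± 0.06 (95% interval -0.60 to -0.35), or 0.720-fold, with an adjusted p of 4.31e-06 in edgeR's test. A full separation downwards was seen for 0.306% of all tested genes and for no other kinase here.

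The promoters of those genes, the only kinases whose exercised and rested mice did not overlap, differ in CpG content. CpG is the dinucleotide that DNMT3A methylates, and methylation was not measured in these libraries. The 250 bases before the RefSeq start in GRCm38.p6 are shown 5′ to 3′ on the gene's strand, with CpG in capitals. That of *Map3k6* is chr4:133240568-133240817 on the + strand, and that of *Map3k1* is chr13:111808994-111809243 on the - strand.
Map3k6: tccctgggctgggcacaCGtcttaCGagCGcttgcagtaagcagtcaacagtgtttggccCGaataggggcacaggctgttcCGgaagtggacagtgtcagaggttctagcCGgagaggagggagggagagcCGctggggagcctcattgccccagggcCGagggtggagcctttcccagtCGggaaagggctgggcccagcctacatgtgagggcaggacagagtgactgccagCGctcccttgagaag
Map3k1: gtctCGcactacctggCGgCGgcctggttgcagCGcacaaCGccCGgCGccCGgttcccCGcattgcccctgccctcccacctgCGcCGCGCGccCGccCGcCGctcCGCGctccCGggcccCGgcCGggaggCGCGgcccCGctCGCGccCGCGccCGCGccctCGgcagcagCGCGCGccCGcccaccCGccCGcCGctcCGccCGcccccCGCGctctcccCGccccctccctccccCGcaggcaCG
The *Map3k6* window holds 10 CpGs at a GC content of 62.8%, and the *Map3k1* window holds 45 at 85.2%. Of the other kinases called higher, *Map4k3* also holds 45 (82.4% GC), *Map4k2* holds 21, and the windows of *Mapkapk3* hold 6 and 11. A link of CpG content to the direction of the response was not tested. The 50 windows of the 37 kinases that RefSeq's table matched have a median of 15.5 CpGs, beside 6 over all 32851 windows.

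The same table was searched on both strands, over 250 bases before and 50 after each start, for sites of factors that respond to signaling. The letters were TGACGTCA (cyclic AMP response element), TGANTCA (AP-1), CACGTG (E-box) and GGGAN followed by TTTCC (NF-κB), besides the CArG box of serum response factor. The letters of no motif contain those of another. Neither *Map3k6* nor *Map3k1* held any of them, and of the other called kinases with a window (*Map4k2*, *Map4k3* and *Mapkapk3*) only *Mapkapk3* did, with an E-box at position -167 from its start. An E-box is present in 7.15% of all windows, AP-1 letters in 7.81%, the cyclic AMP response element in 1.79%, the CArG box in 1.63% and the NF-κB letters in 0.41%. Among the other tested kinases, the AP-1 letters were in the windows of *Map2k6*, *Map2k7* and *Map3k10*, the E-box in those of *Map3k12*, *Map4k1* and *Mapk12*, the cyclic AMP response element in that of *Mapk10* (at -29) and the NF-κB letters in that of *Map3k7* (at -92).

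*Map3k8* encodes TPL2, the MAP3K that links inflammatory receptors to MEK1. It was a low-abundance transcript, with 50 to 290 counts per library. WT mice at rest had 3.46, 3.97, 4.40, 4.17 and 4.75 CPM, and WT mice after exercise had a lowest value of 4.58, a median of 5.32 and a highest of 6.61 CPM. In mD3AKO mice the same values were 3.50, 3.84 and 5.44 CPM at rest and 5.19, 6.13 and 9.84 CPM after exercise. All 13 exercised mice exceeded the rested median, and 8 exceeded the highest rested mouse. Exercise raised it by 0.50 ± 0.10 on the log2 scale (adjusted p = 0.000859, edgeR). The highest value came from mouse 19, and without that mouse the log2 fold change was 0.42 with an adjusted p of 0.00087. It did not pass the test within WT mice or within females, at 0.38 and 0.29 on the log2 scale with adjusted p-values of 0.196 and 0.343 (edgeR).

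*Map3k2* encodes MEKK2, which acts on MEK5 and on the JNK arm. Its values in WT mice at rest were 23.4, 30.7, 25.5, 26.2 and 27.3 CPM. After exercise WT mice had 24.7 to 32.6 CPM with a median of 29.8. The mD3AKO mice had 21.9 to 29.3 CPM (median 25.7) at rest and 27.3 to 35.1 CPM (median 30.7) after exercise. The groups overlapped, and 11 of 13 exercised mice were above the rested median. On the log2 scale the difference was 0.19 ± 0.06 with an adjusted p of 0.0282 in edgeR's test. That call was lost without mouse 1, 9, 10 or 14, each left out alone, with log2 fold changes of 0.17 to 0.18 and adjusted p-values up to 0.0629.

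In the MAP4K tier, *Map4k2* (upstream of the JNK arm) was higher after exercise. WT mice at rest had 7.04, 8.44, 10.3, 9.63 and 10.5 CPM, and WT mice after exercise 9.04, 12.1 and 14.6 CPM as lowest, median and highest. In mD3AKO mice these were 7.76, 8.73 and 10.9 CPM at rest and 10.2, 10.8 and 12.6 CPM after exercise. The ranges overlapped, with 8 of 13 exercised mice above the highest rested one and 13 above the rested median. Its log2 fold change of 0.32 ± 0.08 had an adjusted p of 0.00559 (edgeR). Of its exon length, 1.41% overlaps *Gm14966* on the other strand, a gene at 0.247 CPM.

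*Map4k3* (GLK, known for relaying amino acid supply to mTORC1) also rose. The rested WT mice had 25.7, 27.3, 25.6, 26.2 and 31.6 CPM. Exercised WT mice had 28.9 to 35.5 CPM with a median of 30.6. At rest mD3AKO mice had 27.1 to 32.5 CPM (median 29.3), and after exercise 29.7 to 34.3 CPM (median 32.3). All 13 exercised mice were above the rested median, though only 5 were above the highest rested mouse. The rise was 0.17 ± 0.04 on the log2 scale, with an adjusted p of 0.0132 in edgeR's test. *Map4k4*, studied for its part in insulin and stress signaling, had 0.10 ± 0.05 with an adjusted p of 0.181, *Map4k5* 0.012 ± 0.044 and *Map4k1* -0.25 ± 0.23.

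*Mapkapk3*, a p38-activated kinase, was the only member that edgeR called below the MAP3K tier. Its values were 32.0, 31.3, 27.8, 25.1 and 24.0 CPM in WT mice at rest and 28.3, 33.0 and 37.4 CPM (lowest, median, highest) in WT mice after exercise. The mD3AKO mice had 28.0, 32.5 and 35.3 CPM at rest and 31.1, 37.1 and 44.1 CPM after exercise. The groups overlapped widely, and 10 of 13 exercised mice exceeded the rested median. Its log2 fold change was 0.21 ± 0.06, with an adjusted p of 0.0257 (edgeR). Leaving out mouse 6, 14 or 20 alone took it to between 0.18 and 0.19 with adjusted p-values of up to 0.0696. *Mapkapk2*, with far more RNA, had 0.11 ± 0.05 with an adjusted p of 0.238.

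**Figure D3:**
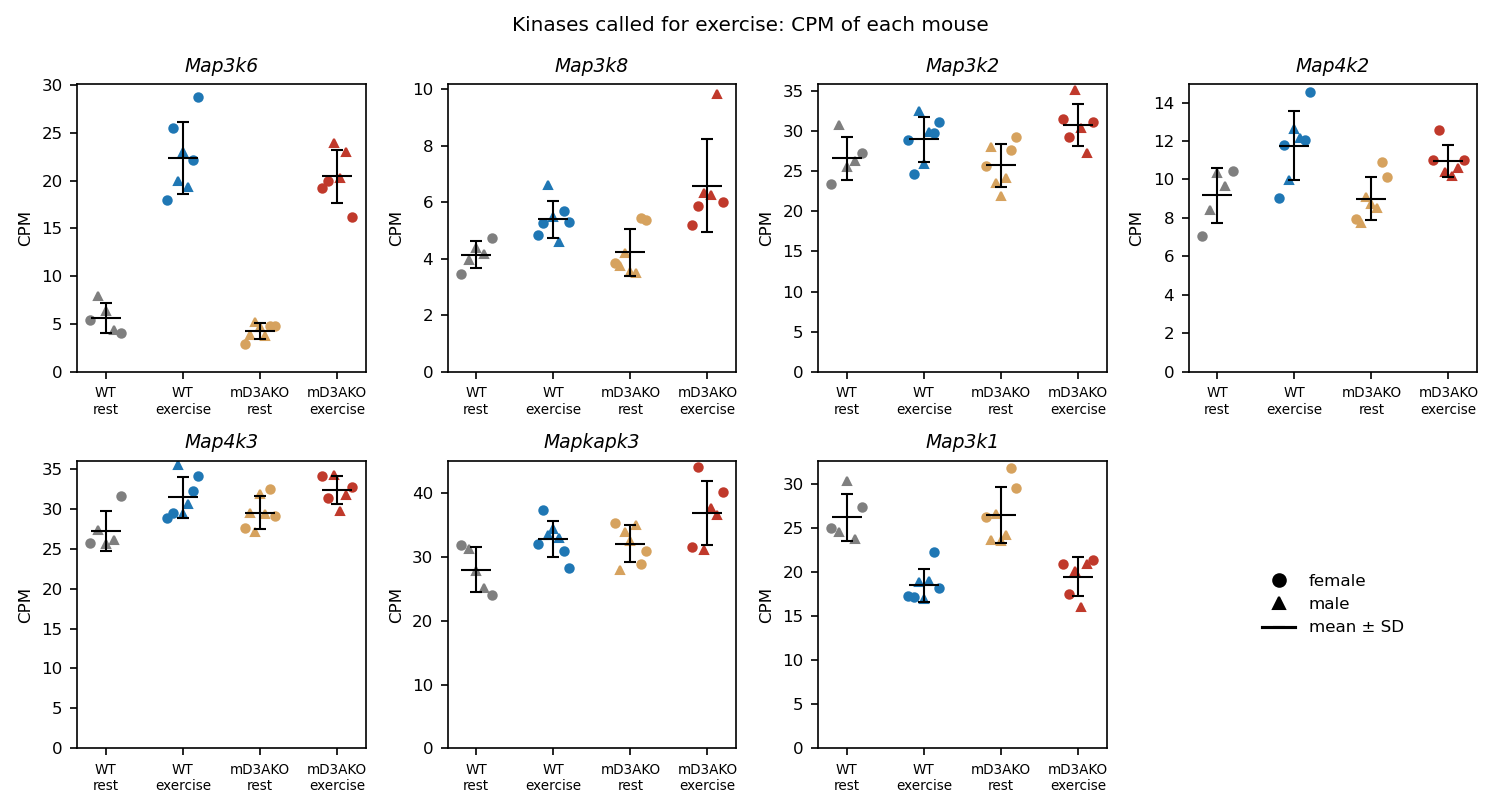
CPM of the 7 kinases called for exercise, each point 1 mouse (circles female, triangles male) with the group mean ± SD, in WT (n = 5 at rest, 7 exercised) and mD3AKO (n = 7 at rest, 6 exercised) mice. The rested and exercised points of *Map3k6* and *Map3k1* do not overlap, whereas those of the other 5 do.

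Just inside the threshold were *Map3k2*, *Mapkapk3* and *Map4k3*, with adjusted p-values of 0.0282, 0.0257 and 0.0132. Just outside it were *Mapk6* (ERK3, an atypical MAPK) at 0.0611, *Map3k14* (NIK, the kinase of non-canonical NF-κB signaling) at 0.0839 and *Map3k11* (MLK3) at 0.119. Their log2 fold changes were 0.16 ± 0.06, 0.30 ± 0.11 and -0.16 ± 0.06. *Mapk6* was at 35.6 ± 2.84 CPM in WT mice at rest (n = 5) and 40.4 ± 4.25 after exercise (n = 7), against 38.6 ± 2.40 (n = 7) and 42.7 ± 5.29 CPM (n = 6) in mD3AKO mice.

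The MAPKs differed widely in the precision of their values. *Mapk14* had a log2 fold change of -0.013 with a 95% interval of -0.11 to 0.086. The value was 0.040 for *Mapk12* (-0.090 to 0.17), 0.045 for *Mapk8* (-0.039 to 0.13) and 0.0059 for *Mapk9* (-0.070 to 0.082). *Mapk3* was at -0.16 (-0.30 to -0.026) with an adjusted p of 0.132, and 6 of 13 exercised mice lay below the lowest rested mouse. *Mapk4* (ERK4) had 0.57 with an interval of 0.0070 to 1.14 and an adjusted p of 0.226. It also varied most within groups, with an SD of 0.63 on the log2(CPM + 0.5) scale against a median of 0.15 over the tested kinases and 0.19 over all tested genes. *Mapk10* at -0.56 ± 0.31, *Mapk7* (ERK5) at -0.10 ± 0.12 and *Mapk11* at 0.10 ± 0.14 did not pass.

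The MAP2Ks gave the tightest tier, with log2 fold changes from -0.036 for *Map2k7* to 0.11 for *Map2k6* and a median of 0.013. The widest 95% interval among them, that of *Map2k6*, ran from -0.066 to 0.29. *Map2k4* was at -0.0022 ± 0.033, and *Map2k1*, *Map2k2*, *Map2k3* and *Map2k5* were at -0.014, 0.047, 0.099 and 0.013. For *Map2k7*, 35.2% of the exon length is shared with *Gm49320* on the same strand, a gene listed at 0 CPM.

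Of the MAP3Ks not yet given for exercise, *Map3k3*, *Map3k4*, *Map3k7*, *Map3k10* and *Map3k20* lay between -0.026 and 0.031 on the log2 scale. *Map3k13* (LZK) had 0.35 ± 0.15, *Map3k12* (DLK) -0.18 ± 0.09 and *Map3k9* (MLK1) -0.50 ± 0.24, with adjusted p-values of 0.172, 0.214 and 0.220. *Map3k9* rests on 6 to 30 counts per library. *Mapkapk5* had -0.075 ± 0.20, and 56.5% of its exon length overlaps *Gm42878* on the same strand.

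Markers of other cell types moved between the same groups, where 5.7% of all tested genes were called higher after exercise and 4.69% lower. Of 6 endothelial markers, 4 were lower after exercise by edgeR's test (*Kdr* -0.58, *Tek* -0.35, *Emcn* -0.27 and *Cdh5* -0.23 on the log2 scale) and 0 were higher. Their summed level was 382 to 503 CPM in WT and 372 to 480 CPM in mD3AKO mice at rest, and 316 to 417 and 333 to 403 CPM after exercise. Of 4 satellite cell markers, *Myf5* and *Pax7* were lower, at -0.46 and -0.45. The summed satellite cell level was 31.3 to 38.1 CPM at rest and 26.6 to 32.9 CPM after exercise over both genotypes. None of the 14 fiber markers passed, nor did any of the tested markers of fibroblasts, immune cells, adipocytes, Schwann cells or blood. All 6 fibroblast markers nevertheless had values below 0, with a median of -0.38, beside -0.25 for the endothelial markers. The closest to the threshold was *Pdgfra* at -0.39 ± 0.13, with an adjusted p of 0.0549 (edgeR). Of the immune cell markers, *Cd3e* of T cells was too low to be tested, at 0.0351 CPM. The part of these cell types in the changes of *Map3k1*, *Map3k6* and the other kinases was not tested.

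The second comparison asked whether loss of *Dnmt3a* alters the kinases. No kinase was called for genotype by edgeR or by DESeq2, where edgeR called 0.269% of all tested genes. At an unadjusted p under 0.05 there were 4 kinases (9.52%) and 1018 of all tested genes (6.23%). The lowest p belonged to *Mapkapk3*, which was higher in mD3AKO mice by 0.18 on the log2 scale (95% interval 0.052 to 0.31), with an adjusted p of 0.465. The others were *Map3k6* at -0.26 (-0.48 to -0.040), *Mapk8* at 0.094 (0.0096 to 0.18) and *Map3k5* at 0.11 (0.011 to 0.22), with adjusted p-values of 0.679, 0.763 and 0.763. Over the 42 kinases the log2 fold changes for genotype ran from -0.35 (*Mapk10*) to 0.18, with a median of -0.020 beside 0.0070 over all tested genes. Of the cell type markers, only *Pax7* of satellite cells was called for genotype, higher in mD3AKO mice by 0.48 on the log2 scale (adjusted p = 0.0384, edgeR). The other satellite cell markers were not called, with *Myf5* at 0.064, *Cdh15* at -0.14 and *Calcr* at -0.035. The paper lists *Pax7* among its putative DNMT3A targets, so its value alone does not give the number of satellite cells.

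The third comparison asked whether the response to exercise differs between genotypes. The interaction was called for no kinase and for 0 of all tested genes (0%) by edgeR, and DESeq2 also called no kinase. Unadjusted, 1 kinase (2.38%) and 403 of all tested genes (2.47%) had a p under 0.05. That kinase was *Map3k12*, with a log2 fold change for exercise of -0.40 ± 0.12 in WT and 0.031 ± 0.12 in mD3AKO mice. Its interaction was 0.43 (95% interval 0.074 to 0.79) with an unadjusted p of 0.0199 and an adjusted p of 1. In WT mice *Map3k12* was at 4.09 ± 0.729 CPM at rest (n = 5) and 3.10 ± 0.318 after exercise (n = 7), and in mD3AKO mice at 3.53 ± 0.645 (n = 7) and 3.64 ± 0.343 CPM (n = 6). Of its exon length, 17.5% overlaps *Pcbp2* on the other strand, a gene at 32.7 CPM.

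The values of the called kinases in each genotype stand side by side. *Map3k6* had a log2 fold change of 1.99 ± 0.16 in WT and 2.25 ± 0.15 in mD3AKO mice, and the interval of the difference ran from -0.18 to 0.70. *Map3k1* had -0.50 ± 0.09 and -0.45 ± 0.09, with an interval of -0.20 to 0.31. *Map3k8* had 0.38 ± 0.14 and 0.63 ± 0.14 (interval -0.16 to 0.65). *Map4k2* had 0.36 and 0.28, *Map4k3* 0.21 and 0.13, *Map3k2* 0.12 and 0.26, and *Mapkapk3* 0.23 and 0.20. *Map3k14* had 0.10 ± 0.16 in WT and 0.50 ± 0.15 in mD3AKO mice, with an interaction interval of -0.048 to 0.84. The mD3AKO value of *Map3k14* was 0.31 with an adjusted p of 0.192 (edgeR) without mouse 19, which stood at 17.7 CPM where the other 5 of its group lay between 9.07 and 10.2. Within WT mice *Map3k6* was the only kinase called higher by edgeR, beside 2.16% of all tested genes. The adjusted p-values there were 0.0788 for *Map4k2*, 0.0893 for *Map4k3*, 0.196 for *Map3k8*, 0.24 for *Mapkapk3* and 0.665 for *Map3k2*. Within mD3AKO mice 4 kinases (*Map3k6*, *Map3k8*, *Map3k14* and *Map3k2*) were called higher by edgeR, beside 3.7% of all tested genes. *Map3k14* and *Map3k2* each lost that call in 15 of 25 fits with 1 mouse left out. *Map3k8* lost it in the fit of females only (adjusted p = 0.775, edgeR). *Map3k1* was the only kinase called lower within either genotype, where 1.43% of all tested genes were called lower in WT and 2.33% in mD3AKO mice. It lost that call within WT mice in the fit of females only, and within mD3AKO mice in that of males only. The adjusted p-values there were 0.115 and 0.0915 (edgeR). The counts of calls within a genotype are no test of a difference between genotypes, and the interaction was called for none of these kinases. Of the 42 kinases, 26 had the same sign in both genotypes.

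**Figure D4:**
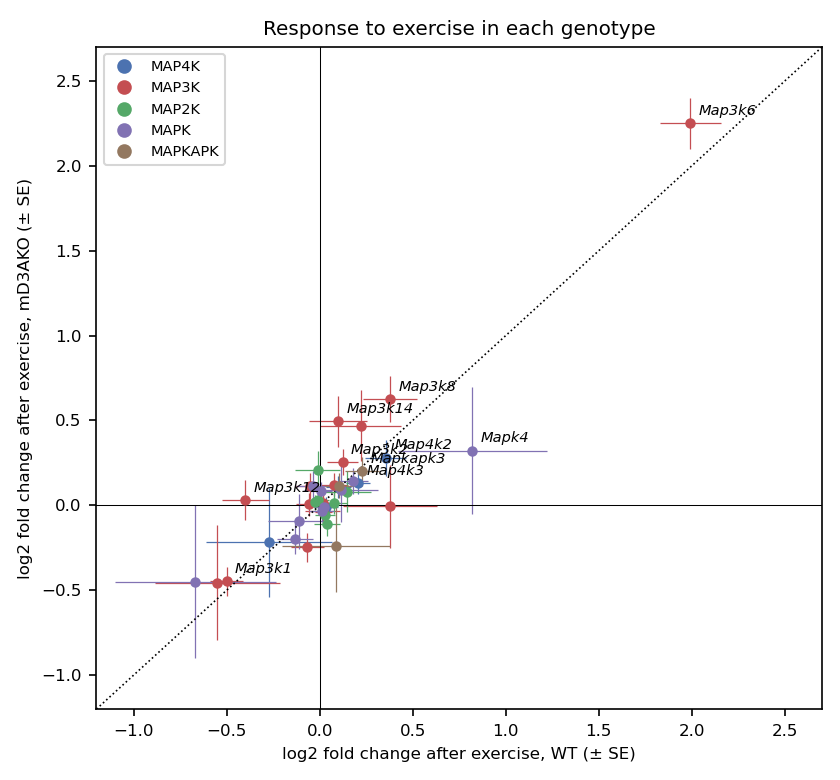
Log2 fold change after exercise in WT mice (horizontal) and mD3AKO mice (vertical) for tested kinases, with bars of 1 SE. The dotted line marks equal responses. *Map3k6* lies at 1.99 and 2.25, *Map3k1* at -0.50 and -0.45, and no interaction passed the threshold.

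Both sexes were present in each group, and sex was tested in a fit with 8 groups of sex, genotype and exercise. By edgeR's test 2 kinases were higher and 1 lower in males, where 5.04% of all tested genes were higher and 3.6% lower. Unadjusted, 8 of 42 kinases had a p under 0.05, beside 23.9% of all tested genes. *Map2k3*, the p38 activator, had 72.3, 85.6 and 117 CPM in females (lowest, median, highest) and 90.3, 101 and 136 CPM in males. The sexes overlapped, and the log2 difference was 0.25 ± 0.07 with an adjusted p of 0.0258. It lost the call without mouse 1, 3, 11, 20 or 23, each left out alone, at 0.23 to 0.25 with adjusted p-values up to 0.0666.

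*Map3k9*, a mixed lineage kinase, had 0.181, 0.296 and 0.449 CPM in females and 0.190, 0.547 and 0.885 CPM in males. The log2 difference was 0.82 ± 0.18 with an adjusted p of 0.00727 (edgeR), on 6 to 30 counts per library. *Map3k5* (ASK1) was lower in males, with 24.5, 27.2 and 31.0 CPM against 26.4, 31.4 and 34.2 CPM in females, a log2 difference of -0.16 ± 0.04 and an adjusted p of 0.0203. For each of these genes the ranges of the sexes overlapped. Of the 14 fiber markers, 10 also differed by sex, among them *Myh7* of slow fibers at -0.51 and *Tnni2* of fast fibers at 0.41 (male against female, log2). Of the 4 satellite cell markers, *Pax7* differed, at -0.31 with an adjusted p of 0.0212 (edgeR), and no tested marker of endothelium, fibroblasts, immune cells, adipocytes, Schwann cells or blood passed for sex. The part of these markers in the kinase values was not tested.

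**Figure D5:**
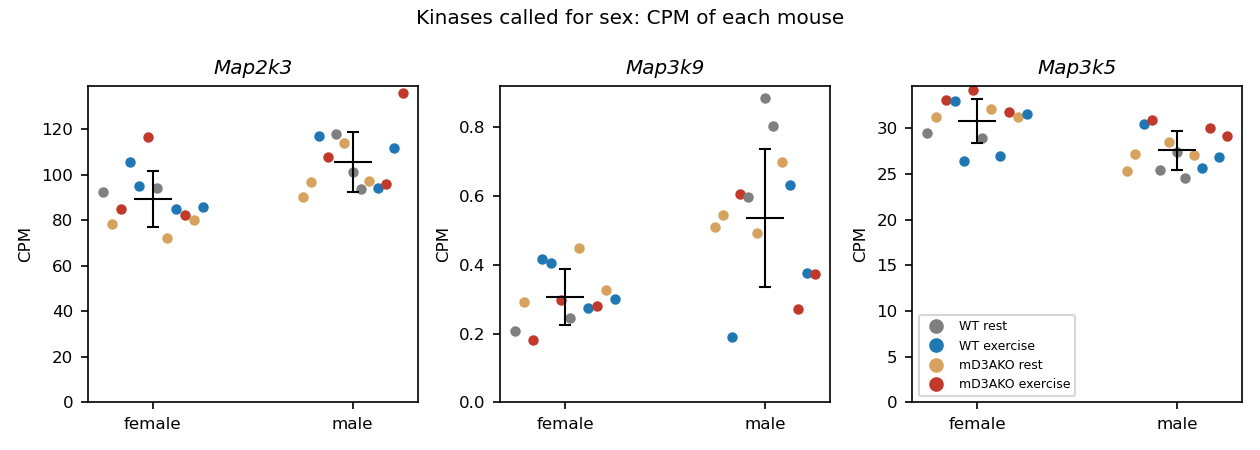
CPM of the 3 kinases called for sex in 12 females and 13 males, each point 1 mouse colored by group, with the mean ± SD of each sex. *Map2k3* and *Map3k9* have higher means in males and *Map3k5* a lower one, and the points of the sexes overlap in each panel.

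The response to exercise did not differ by sex for any kinase at the threshold, with edgeR or DESeq2, and 0.0551% of all tested genes (9 genes) were called by edgeR. Unadjusted, 1 kinase (2.38%) and 546 of all tested genes (3.34%) had a p under 0.05. That kinase was *Map3k8*, with a log2 fold change for exercise of 0.29 in females alone and 0.69 in males alone. Its interaction of sex and exercise was 0.41 on the log2 scale (95% interval 0.043 to 0.78) with an unadjusted p of 0.0304 and an adjusted p of 1 (edgeR). Within females alone, *Map3k6* was the only kinase called higher after exercise, and within males alone *Map3k6* and *Map3k8* were. Of all tested genes, 1.98% were called higher in females and 3.56% in males. *Map3k1* was the only kinase called lower in each sex, where 1.05% and 2.44% of all tested genes were.

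Other genes of the pathway were described beside the kinases, without a test of any list. Over all tested genes, 5.7% were called higher after exercise and 4.69% lower, and the median log2 fold change was -0.00088. Of 9 tested MAP kinase phosphatases, which remove the activating phosphates, 3 were higher after exercise (*Dusp5* 1.13, *Dusp1* 0.70 and *Dusp16* 0.38 on the log2 scale) and 2 were lower (*Dusp7* -0.34 and *Dusp6* -0.34). Their median was 0.26. Of 12 transcription factors that MAP kinases phosphorylate, *Fos* (3.35, from a mean of 9.15 to 93.9 CPM) and *Jun* (1.04) were higher, and *Elk3* (-0.58) and *Ddit3* (-0.35) were lower. The median was 0.0085. Among 9 feedback inhibitors of the RAS-ERK arm only *Errfi1* passed, at 1.21, and the median was -0.045.

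Among 8 tested upstream kinases outside the symbol rule (the RAF and TAO kinases, *Mink1* and *Tnik*), only *Tnik* was called, higher at 0.18. Among 9 other MAP kinases and substrate kinases, *Mknk2*, which phosphorylates the translation factor eIF4E, was higher at 0.32 (378 to 473 CPM). Of 13 scaffolds and adaptors, *Lamtor3* was higher at 0.13 and *Tab1*, a partner of TAK1, was lower at -0.24. Of 13 GTPases and exchange factors upstream, *Rasgrp2* was higher at 0.49. These single calls stand beside 5.7% of all tested genes called higher after exercise and 4.69% called lower. No gene of these 7 lists was called for genotype, where edgeR called 0.269% of all tested genes. Called for sex were *Spag9* (0.17), *Grb2* (-0.12), *Dusp1* (0.49), *Errfi1* (0.60), *Jun* (0.60), *Fos* (1.49) and *Myc* (0.59), as log2 differences of males against females. Of all tested genes, 5.04% were called higher and 3.6% lower in males (edgeR).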

How the data were processed

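RNA from 25 *soleus* muscles was measured as 1 library per mouse. The authors depleted ribosomal RNA, made stranded paired-end libraries and deposited read counts per gene (mm10, GENCODE M15) without normalization. Their processing notes name FastQC 0.11.5, STAR 2.5.3a and featureCounts 1.5.3. Whether counting used the strand, and how it treated reads where genes overlap, is not given in the sources used here. Levels of overlapping genes may therefore be too high or too low, and no length was corrected for overlaps. Symbols were matched through a name table, with 233 genes left unnamed, and 0 columns belonged to other samples.

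Counts were tested with edgeR 4.0.16 (limma 3.58.1, R 4.3.3) by the quasi-likelihood F test. TMM normalization was used, and filterByExpr (4 groups, min.count 10, min.total.count 15) kept 16340 genes. The model had 1 mean per group. Main effects were averages over the other factor, and Benjamini-Hochberg adjustment ran over all tested genes (FDR 0.05). SE is the log2 fold change over the square root of F. CPM used TMM library sizes, CPM per kb the exon length of the count table. The scripts were tested on simulated data. The 67 replicate pairs all differed beyond sampling noise (lowest chi-square per gene 13.2), with 0 identical. Intervals are at 95%.

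Named are all called kinases, the highest and lowest of each tier, the 3 on each side of the threshold, and called genes of the lists. Members and lists were chosen with earlier results of these data known. Alternatives were RLE scaling, 2 other filters, DESeq2 1.42.0, a robust fit, a sex term, each sex alone and each mouse left out. Their use on values within a genotype and for sex was added after the data were seen. Promoter windows are from RefSeq (GRCm38.p6). DNA methylation, phosphorylation and proteins were not analysed here, and 1 tested kinase is counted but not reported by itself, in text or figures.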

Additional observations from a re-analysis of the deposited data

Results flagged for a closer look

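Each kinase that passed the filter was searched, in each of the 4 groups, for a mouse far from the others of its group by Dixon's criterion at 95%. In 9 of 168 groups the highest mouse was flagged, where chance alone flags about 1 in 20 groups. Mouse 19, an exercised mD3AKO male, gave 4 of them. Its value was 161.9 CPM for *Mapk12* where the other 5 mice of the group reached at most 108 CPM. It was 17.65 CPM for *Map3k14* (others up to 10.2), 9.842 CPM for *Map3k8* (others up to 6.31) and 2.817 CPM for *Mapk11* (others up to 1.60, on 83 counts in mouse 19).

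The others came from 5 different mice. *Map4k1* was at 1.406 CPM in mouse 5, a WT mouse after exercise, against at most 0.541 in the other 6, on 45 counts. *Map3k1* was at 22.3 CPM in mouse 22, also WT after exercise, against at most 19.0, and that value still lies below every rested mouse. *Map4k2* was at 12.56 CPM in mouse 6, exercised mD3AKO, against at most 11.0. *Map4k3* was at 31.56 CPM in mouse 20, WT at rest, against at most 27.3. *Map2k5* was at 12.87 CPM in mouse 15, the rested mD3AKO mouse with the fewest counts, against at most 11.6.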

How the results depend on the processing

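*Map3k6* and *Map3k1* kept direction and call for exercise in all 35 alternatives. None of the 7 kinases called for exercise or the 3 called for sex changed sign in the alternatives run for it. The 35 include each genotype alone, where 16 of the 42 tested kinases had opposite signs, none of them called for exercise. Kinases called higher for exercise numbered 1 in females only (1.98% of all genes), 2 in males only (3.56%), and 4 to 7 with each mouse left out. 1 was called lower each time. For genotype, the interaction and sex by exercise the counts were 0 under every alternative run. For sex, the number lower in males was 0 with no filter on low counts, 2 with DESeq2 and 1 to 2 with each mouse left out. The number higher in males was 1 under a filter on mean CPM of at least 1, where *Map3k9* was not tested, and 1 to 2 with each mouse left out. With no filter, *Map3k2*, *Mapkapk3* (exercise) and *Map3k5* (sex) lost their calls, with adjusted p-values of 0.0575, 0.0592 and 0.14 over 35398 genes. DESeq2 added *Mapk6* for exercise. Within WT mice *Map4k2*, *Map4k3*, *Map3k8*, *Mapkapk3* and *Map3k2* lost their calls for exercise, and within mD3AKO mice *Map4k2*, *Map4k3* and *Mapkapk3* did. Within mD3AKO mice, where 3.7% of all genes were called higher, *Map3k14* and *Map3k2* passed in edgeR's full fit, with adjusted p-values of 0.0468 and 0.0488. Each lost that in 19 of 33 alternatives. These were 15 of 25 fits with 1 mouse left out, both other filters and each sex alone. RLE scaling left the median of all genes at -0.0029. The causes were not tested. Kinases under 1 CPM rest on few reads. No paired analysis was possible because each mouse number occurs once, in 1 group.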
